A study of Homo sapiens with 16 samples.

Results

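The 4 libraries described here are the non-targeting controls of a knockdown study in IMR32 cells, and they were chosen by their label alone, 4 of the 16 libraries of the series. IMR32 is an established human neuroblastoma line that carries amplified MYCN. The control cells were transfected with a non-targeting small interfering RNA (siNTC in the labels, genotype "control") and, per the column names, collected at 48 h. The other 12 libraries received siRNAs against TPX2, a spindle protein, and enter no value below. No untransfected cells are among the samples, so all levels are those of transfected cells of 1 line. The series' design text calls the replicates biological, and the labels number them 1 to 4 without saying what was separate, so the spread between them may in part be technical. The labels give the tissue as brain and the cell type as neuroblast.

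Neuroblastoma arises from the sympathetic branch of the neural crest, the embryonic lineage that also forms sympathetic neurons and the chromaffin cells of the adrenal medulla. Its cells occur in an adrenergic state, held by a circuit of transcription factors such as HAND2 and GATA3 that bind one another's enhancers, and in a mesenchymal state marked by factors such as PRRX1 and the YAP and TAZ coactivators. Adrenergic cells carry parts of the sympathetic machinery, with enzymes that make noradrenaline and granules that store and release it. MYCN is a transcription factor of the MYC family, and its amplification marks high-risk tumours.

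Reads came from a kit that primes at the poly(A) end of RNA, so a transcript gives about 1 read whatever its length, and levels can be set side by side between genes as CPM, counts scaled by library size. Total counts were 6255358, 6301696, 5336540 and 5802676 in replicates 1 to 4. Among detected protein-coding genes, CPM had a Spearman correlation of 0.0547 with the length of the longest transcript, across 11152 genes that share these libraries, and one of -0.125 with the median length of a gene's transcripts. Genes were taken as detected at 1 CPM or more in every control library. A gene with at most 3 counts in every library was taken as at or under the floor, and 3 counts equal 0.466 to 0.568 CPM, a limit that covers counting error only.

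Of 58787 genes in the table, 12860 were detected, 21.9%, and 35911 had no count in any control library. Among the 19903 protein-coding genes, 11152 were detected, 56.0%, 6977 were at or under the floor, 35.1%, and 1774 lay between. Counts of protein-coding list members below are to be read against that 56.0%. For lists that also hold non-coding RNAs, the 21.9% of all genes applies too. The median detected protein-coding gene stood at 28.7 CPM. Protein-coding genes held 93.0% ± 0.186 of the counts (SD, n = 4), and intergenic, antisense and other long non-coding RNAs held 3.64% ± 0.143. No mitochondrially encoded gene entered these totals.

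A small part of the transcriptome held most of the reads. The 10 most abundant genes held 7.11% ± 0.215 of the counts, the 100 most abundant 22.4% ± 0.273, and the 1000 most abundant 56.5% ± 0.494. Ranked by mean CPM, 704 genes held 50% of the counts, and 688 to 728 did when each library was ranked by itself. Exactly 100 genes had a mean of 1000 CPM or more, and 1970 lay between 100 and 1000 CPM, where they held 48.8% ± 0.161 of the counts. The 5174 genes with a mean between 1 and 10 CPM held 2.08% ± 0.0740.

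**Figure D1:**
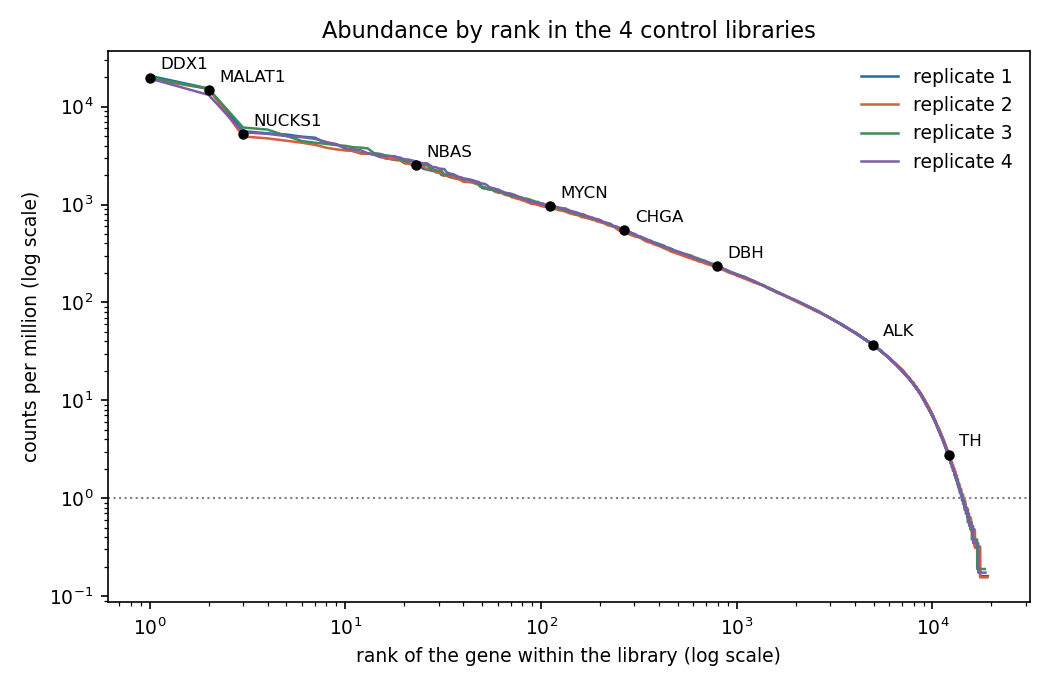
Abundance against rank for every gene with a count, both axes on a log scale, with 1 line for each of the 4 control libraries and black points for the mean CPM of named genes; the dotted line is 1 CPM. The lines lie nearly on each other, DDX1 and MALAT1 stand above the rest at 19755 and 14717 CPM, and the adrenergic genes CHGA and DBH lie among the most abundant 1000.

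DDX1 was the most abundant transcript of these cells. It encodes a DEAD-box RNA helicase that takes part in RNA processing and lies next to MYCN (chromosome 2, 15591178 to 15631111, plus strand, GRCh38). Its level was 20633, 19120.2, 19875 and 19390.1 CPM in replicates 1 to 4. All 4 values lay above those of every other gene, with a mean of 19755 ± 664 CPM, 1.98% ± 0.0602 of all counts. The other DDX helicases, a group looked at after that value was seen, had a median of 63.2 CPM, and the next in order was DDX21 at 755 ± 74.4 CPM. MALAT1, a nuclear long non-coding RNA, had the second level of all genes at 15313, 15204, 15183 and 13169 CPM, with replicate 4 below the other 3. DDX1 had 1.35 ± 0.0916 times the CPM of MALAT1, a ratio of counts only, since MALAT1 is not polyadenylated as a rule. DDX1 was 4.05 ± 0.286 times as abundant as GAPDH, the glycolytic enzyme often used as a reference.

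The 4 protein-coding genes from LRATD1 to MYCN were all highly abundant. MYCN (chromosome 2, 15940564 to 15947007, plus strand) stood at 918, 1102, 892 and 943 CPM, the highest value being that of replicate 2, with a mean of 964 ± 94.4 CPM. NBAS (chromosome 2, 15166909 to 15561330, minus strand), which encodes a protein of retrograde transport between Golgi and endoplasmic reticulum, stood at 2480.0, 2866, 2208 and 2529 CPM. LRATD1 (chromosome 2, 14632686 to 14650814, plus strand), formerly FAM84A, stood at 1641, 1807, 1378 and 1611 CPM. In all 3 genes replicate 2 was the highest and replicate 3 the lowest, whereas DDX1 was highest in replicate 1 and lowest in replicate 2. DDX1 exceeded MYCN 20.7 ± 2.37 times, NBAS 7.92 ± 0.991 times and LRATD1 12.4 ± 1.59 times.

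A stretch reaching slightly past LRATD1 and MYCN, with gene starts from 14530941 to 15997049 on chromosome 2, held 19 genes. Of these 8 were detected, where 21.9% of all genes were, and most non-coding ones had no count. The unnamed intergenic RNA ENSG00000228505, which lies just upstream of LRATD1 on the same strand, stood at 716 ± 77.0 CPM, and MYCNOS, the antisense partner of MYCN, at 218 ± 30.5 CPM. MYCNOS overlaps the 5′ end of MYCN on the other strand while the 3′ ends of both lie outside the overlap, and whether counting used strand is not given in the sources used here. RPS26P18, a processed pseudogene inside NBAS on the same strand, stood at 208 ± 45.2 CPM, and reads of NBAS introns cannot be told apart from its own. All 19 together held 2.60% ± 0.0775 of all counts.

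No other gene that starts within 6 Mb of MYCN reached the level of these 4 protein-coding genes. The highest outside the stretch were PDIA6, a disulphide isomerase, at 386 ± 61.3 CPM and LAPTM4A, a lysosomal membrane protein, at 372 ± 48.7 CPM, both above MYCNOS and RPS26P18. CYRIA, the next protein-coding gene after MYCN, stood at 4.61 ± 1.27 CPM, and VSNL1, a neuronal calcium sensor further on, at 0.548 ± 0.587 CPM. On the side of LRATD1 TRIB2, a pseudokinase, stood at 112 ± 15.1 CPM, and ODC1, the first enzyme of polyamine synthesis and a known MYC target, at 139 ± 7.17 CPM. Among 1849 windows of 2 Mb along the genome with at least 4 detected protein-coding genes, the window that holds LRATD1, NBAS, DDX1 and MYCN ranked first by median level, at 2065 CPM, and first by summed level, at 24848 CPM. The highest median of a window that did not overlap it was 213 CPM, on chromosome 7 around CBX3, and the highest sum 8847 CPM, around PTMA and NCL. DDX1 and NBAS are known to be amplified together with MYCN in many tumours; gene copies were not measured in these samples, and their part in these levels was not tested. Of the 20 genes in the MYCN locus list, which also holds genes of chromosome 2 further away, 14 were detected, 70.0%. The list mixes protein-coding and non-coding genes, and the share was 56.0% among protein-coding genes and 21.9% among all genes. GACAT3 and MYCNUT, non-coding RNAs named beside MYCN, and MSGN1 and NTSR2 had no count in any library, and RAD51AP2 had at most 3.

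**Figure D2:**
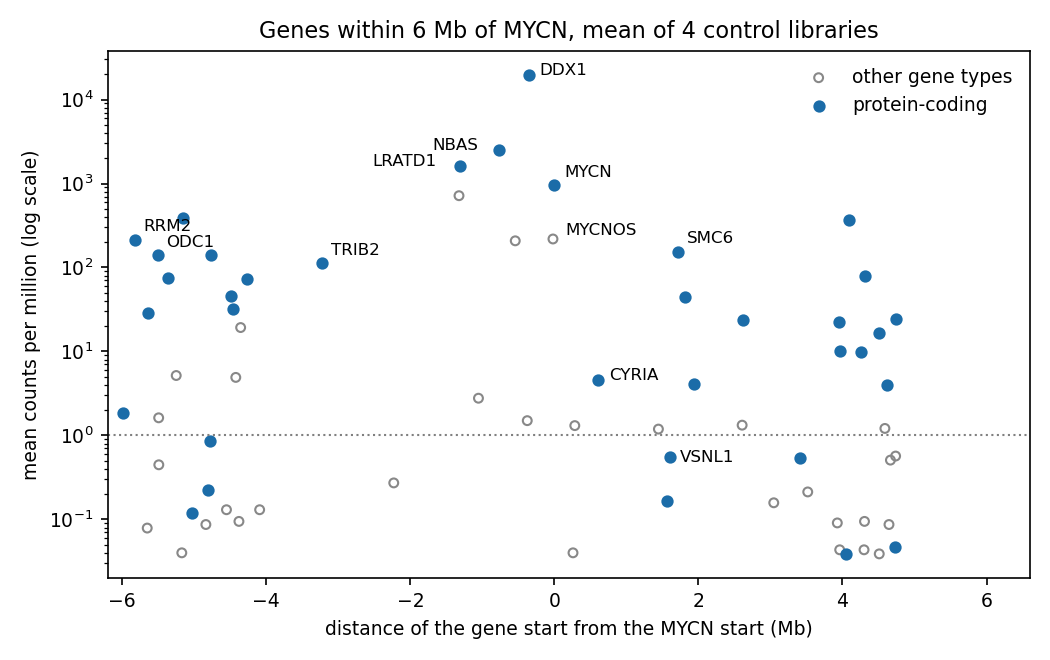
Mean CPM of 4 control libraries (log axis) for genes that start within 6 Mb of the MYCN start, against that distance in Mb; filled points are protein-coding genes, open points other types, genes with no count are not drawn, and the dotted line is 1 CPM. LRATD1, NBAS, DDX1 and MYCN lie between 964 and 19755 CPM, above all other genes drawn.

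After DDX1 and MALAT1 the most abundant transcripts came from a few working groups. Chromatin and nucleolar proteins included NUCKS1 (5239.9 ± 573 CPM), a nuclear DNA-binding protein, PTMA (5021 ± 1086), an acidic chromatin protein and known MYC target, the nucleolar protein NCL (2889 ± 296) and the histone chaperone SET (2705 ± 139.7). The tubulins TUBB (4650.1 ± 483) and TUBA1B (2531 ± 225), the chaperones HSP90AA1 (4253 ± 481) and HSP90AB1 (3862 ± 321), and the splicing regulator HNRNPK (2504 ± 213) also stood among the first 25. So did CENPF (3264 ± 74.3), a kinetochore protein, TOP2A (2984 ± 195), the topoisomerase of replicating and condensing chromosomes, and the histone gene H4C3 (3973 ± 353). The non-coding genes among the first 25, beside MALAT1, were SNHG25 (3143 ± 209), a small nucleolar RNA host gene, and RNU4ATAC (2495 ± 417), an RNA of the minor spliceosome. RNU4ATAC, the histone H4C3 and MALAT1 are not polyadenylated as a rule, so their levels in a poly(A)-primed library cannot be set beside those of other genes.

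Cytosolic ribosomal proteins were the largest of 21 gene families counted. Their 90 genes, tissue-specific copies included, held 8.80%, 9.11%, 9.18% and 9.56% of the counts in replicates 1 to 4, and 86 were detected. RPS3 (4731 ± 309 CPM), RPL37A (3620.4 ± 219), RPL27A (3605 ± 236), RPS29 (3155 ± 237) and RPS27A (3070.0 ± 515) stood among the 25 most abundant genes. Pseudogenes of the family, of all pseudogene types, held a further 1.25% ± 0.0819 of the counts, with 125 of 1599 detected. The highest, RPL36AP37, stood at 1319 ± 136 CPM. Pseudogene and parent share sequence, so how their reads were divided is uncertain. Mitochondrial ribosomal proteins held 0.609% ± 0.0266, with 76 of 78 detected.

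Ribosomal protein genes are known for a run of pyrimidines at the very start of their transcripts, the 5′ terminal oligopyrimidine tract, through which the mTOR pathway controls their translation. The study from which these controls come concerns translation, so the windows of some abundant members are printed here beside some abundant genes outside the family. Each runs from 15 bases before the RefSeq start, which can differ from the start used for counting, to the base 14 after it, 30 bases in all, read 5′ to 3′ on the coding strand from RefSeq (GRCh38.p14). Capitals mark a C followed by at least 5 C or T letters that begins within 10 bases of the start.
RPS3 (chr11:75399503-75399532, plus strand): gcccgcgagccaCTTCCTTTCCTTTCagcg
RPL37A (chr2:216498829-216498858, plus strand): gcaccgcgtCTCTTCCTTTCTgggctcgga
RPL27A (chr11:8682777-8682806, plus strand): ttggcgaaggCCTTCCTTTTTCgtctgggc
RPLP1 (chr15:69452803-69452832, plus strand): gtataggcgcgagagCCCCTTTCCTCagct
RPS6 (chr9:19380222-19380251, minus strand): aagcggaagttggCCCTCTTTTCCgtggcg
EEF2 (chr19:3985449-3985478, minus strand): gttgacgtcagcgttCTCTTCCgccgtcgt
RPS29 (chr14:49598696-49598725, minus strand): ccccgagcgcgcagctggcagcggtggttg
TUBB (chr6:30720337-30720366, plus strand): ccctctCCTTTCTCCCTCTCagaaccttcc
DDX1 (chr2:15591853-15591882, plus strand): gaagcgcgcgccgccactgccacgccgtgt
GAPDH (chr12:6535249-6535278, plus strand): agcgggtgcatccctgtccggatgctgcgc
MYCN (chr2:15940535-15940564, plus strand): cgagcttcaaagcgcaggctgtgacagtca
RPS3, RPL37A, RPL27A, RPLP1, RPS6 and the elongation factor EEF2 hold a run at or close to the start. RPS29, DDX1, GAPDH and MYCN hold none that meets this description, and in TUBB, which is outside the family, the run lies mostly before the start. Among windows looked at but not printed, RPS24, RPL38 and RPS14 hold a run and RPS27A does not. Outside the family NBAS holds a run, and NUCKS1, PTMA and LRATD1 do not.

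Over all members with a RefSeq window, 52 of 72 ribosomal protein genes held such a run between 10 bases before and 12 after the start, 72.2%, against 18.4% of 15317 protein-coding genes. This search was chosen after the windows had been seen. Among the other genes within the first 100 protein-coding ranks it was 26.9% of 52, and among genes with at most 3 counts 18.1%. The median level was 818 CPM for ribosomal protein genes with a run and 510.1 CPM for the 20 without, and the ranges of the groups overlapped. The shorter letters CTTTCC, sought on both strands of the whole window of 250 bases before to 50 after the start, were in 43.1% of ribosomal protein promoters and 26.5% of all, and the longer CTCTTTCC, which contains them, in 12.5% and 3.17%.

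The share of promoters with other letters differed between abundance classes. CCGGAAG, a core bound by ETS factors, was in 31.9% of ribosomal protein promoters, 13.5% of the other genes within the first 100 ranks, 23.3% of genes ranked after the first 1000 up to 5000, 4.36% of genes with at most 3 counts and 14.4% of all. CACGTG, the E-box that MYC family proteins bind, was in 17.3% of the other genes within the first 100 ranks, 13% of genes ranked after the first 100 up to 1000, 6.09% of those with at most 3 counts, 5.56% of ribosomal protein genes and 8.87% of all. TATAAA, the TATA-box letters, ran the other way, with 4.10% at ranks over 1000 up to 5000, 18.4% at most 3 counts and 9.59% in all, while the 52 genes of the first 100 ranks outside the ribosomal family had 17.3%. On the coding strand between 45 and 15 bases before the start, where a TATA box usually lies, these letters were in 9.62% of those 52 genes, 1.17% at ranks over 1000 up to 5000, 8.25% of genes with at most 3 counts and 3.73% of all. A match is a description of letters and not a bound site.

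**Figure D3:**
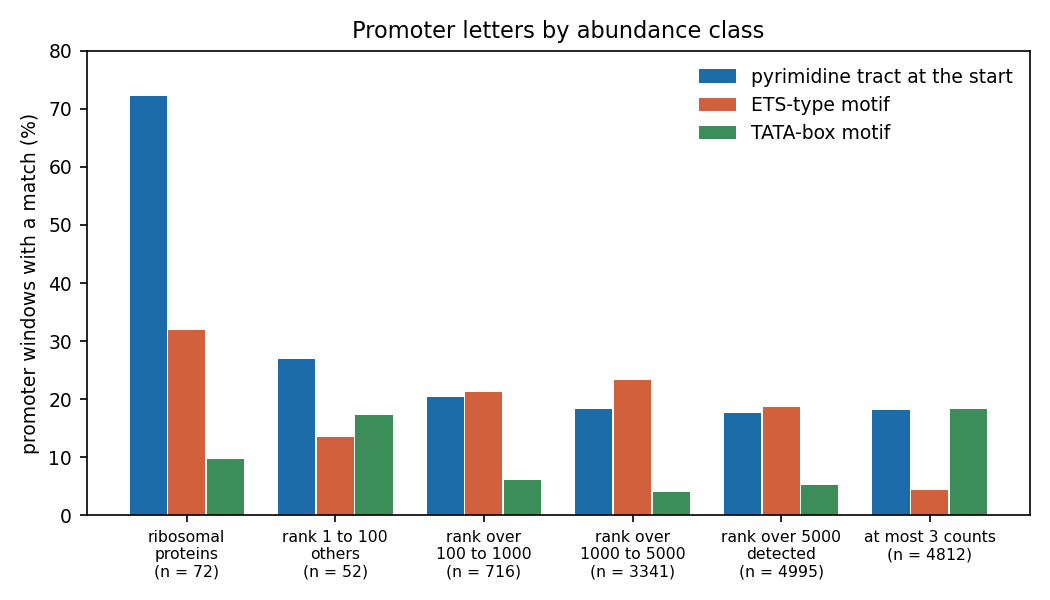
Share of RefSeq promoter windows with a match, in percent, for 3 kinds of letters by abundance class of protein-coding genes in the control libraries, with the number of windows under each class; the ETS-type motif is CCGGAAG and the TATA-box motif TATAAA, each on either strand of the whole window. The pyrimidine bar of ribosomal protein genes reaches 72.2%, against 18.3% at ranks over 1000 up to 5000.

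Translation factors outside the ribosome held 1.16% ± 0.0179 of the counts. In the list of initiation and elongation factors 41 of 45 were detected. PABPC1 (1798 ± 99.3 CPM), the poly(A)-binding protein, EEF2 (1311 ± 99.5), the translocation factor, EIF5B (1065 ± 86.4), which joins the ribosomal subunits, EIF3A (965 ± 40.3) and EIF4G2 (931 ± 27.1) led it. Of the helicases of the cap-binding complex, EIF4A2 stood at 91.8 ± 7.86 CPM and EIF4A1 at 21.7 ± 3.57 CPM. The 3′ end of EIF4A1 is annotated a second time in the readthrough gene SENP3-EIF4A1 on the same strand, so its value is a lower limit if reads that fit both genes were left out. EEF1G and EIF4EBP3 were listed at 0, and the same kind of overlap or shared sequence covers their 3′ ends.

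Chaperones and energy metabolism were broadly present. Of the chaperone list 25 of 26 were detected, led by HSP90AA1 and HSP90AB1, then HSPD1 (1065 ± 48.3 CPM), the mitochondrial chaperonin, CCT3 (844 ± 39.1) of the tubulin-folding ring and CANX (706 ± 36.6). The stress-induced HSPA1A had at most 3 counts in every library. Glycolysis had 18 of 20 detected, with GAPDH at 5333, 4278, 5017 and 4996 CPM, PKM at 1773 ± 171, ENO1 at 824 ± 75.4, LDHB at 822 ± 52.5 and TPI1 at 607 ± 35.4 CPM. LDHA, the other lactate dehydrogenase subunit, stood at 182 ± 16.1 CPM, below every value of LDHB. Nuclear genes of the respiratory chain held 1.59% ± 0.0497 of the counts with 89 of 100 detected, and proteasome subunits 0.925% ± 0.0394 with 44 of 50. Of housekeeping genes 16 of 16 were detected, GAPDH being the highest, and their summed level was 9971 CPM in replicate 2 against 11313 to 11469 in the other 3.

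The adrenergic circuit was present almost whole. Of 36 regulators of the adrenergic state, 31 were detected, 86.1% against 56.0% of protein-coding genes, with a median of 128 CPM. Since the list was made of genes known from such cells, that share describes the line and is not independent evidence. GATA3 (chromosome 10, 8045378 to 8075203, plus strand), a zinc finger factor of the same circuit, stood at 1213, 1048, 1131 and 1027 CPM. HAND2 (chromosome 4, 173524969 to 173530229, minus strand), a basic helix-loop-helix factor, stood at 674, 742, 705 and 734 CPM. All 4 GATA3 values lay above all 4 of HAND2.

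SOX11 (1021 ± 97 CPM), a factor of immature neurons, TCF4 (991 ± 31.0), a partner of helix-loop-helix factors, and MYCN overlapped with one another. SOX11 and MYCN also overlapped with GATA3. Lower members were TBX2 (427 ± 45.4), PHOX2A (394 ± 41.6), MEIS1 (349.8 ± 46.3), ISL1 (193 ± 8.62) and HAND1 (162 ± 11.9). GATA2, which acts with GATA3 in sympathetic cells, stood at 25.8 ± 3.86 CPM. The members that were not detected were ZNF536 (1.86 ± 1.02 CPM, with a 3′ end covered by another gene), LMO3 (1.28 ± 0.473), HEY1 (1.19 ± 0.614), TFAP2B (0.593 ± 0.0989) and LMO2. TFAP2B, a factor of sympathoadrenal differentiation, had 4, 3, 3 and 4 counts in replicates 1 to 4, while its relative TFAP2A stood at 17.4 ± 3.94 CPM. LMO2 had no count, LMO1 stood at 3.23 ± 1.25 CPM and LMO4 at 244 ± 28.4 CPM. HAND2-AS1, the antisense neighbour of HAND2, reached 606 ± 19.5 CPM, below every HAND2 value, and without known strand use reads of overlapping parts cannot be told apart.

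Catecholamine genes were detected at uneven levels, 15 of 20, 75.0% against 56.0% of protein-coding genes, and 9 of them reached 5 CPM in every library. DBH (chromosome 9, 133635348 to 133659344, plus strand), the enzyme that turns dopamine into noradrenaline, stood at 228, 282, 199 and 225 CPM, highest in replicate 2. TH, the rate-limiting first enzyme, stood at 2.72, 2.33, 3.98 and 2.09 CPM, that is 12 to 21 counts, highest in replicate 3. DDC, which makes dopamine, stood at 11.1 ± 2.36 CPM. SLC6A2, the noradrenaline transporter of the plasma membrane, stood at 50.4 ± 5.83 CPM, while of the vesicular transporters SLC18A2 stood at 4.16 ± 1.31 CPM and SLC18A1 had no count. QDPR (108 ± 7.42), GCHFR (49.3 ± 10.1) and GCH1 (2.06 ± 0.718) act on the cofactor of TH, MAOA (19.8 ± 2.79) degrades catecholamines, and MAOB had no count. PNMT, which makes adrenaline in chromaffin cells, had a mean of 0.541 CPM and MOXD1 at most 3 counts.

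Granule and release genes were higher. Of 26 members 18 were detected, 69.2%. CHGA (chromosome 14, 92923080 to 92935293, plus strand), the granin that packs catecholamine granules, stood at 498, 600.5, 566 and 508 CPM. SYT1, a calcium sensor of exocytosis, stood at 738, 704, 665 and 649 CPM, above every CHGA value, and SCG3, another granin, at 514 ± 22.4. GAL (139 ± 21.0 CPM), the precursor of galanin, and SYP (88.1 ± 15.8) of synaptic vesicles came next, and CHGB stood at 65.1 ± 10.3. The members at or under the floor were NPY, SST, PCSK1, PCSK2, TAC1 and CARTPT, that is 4 neuropeptides and both prohormone convertases of the list, all with 3′ ends free of other genes.

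In the list named neuronal cytoskeleton 35 of 36 members were detected, with a median of 216 CPM. The list also holds a neuronal membrane protein and RNA-binding proteins, so these values are not those of cytoskeleton genes alone. TUBB, TUBA1B, the neuronal membrane protein NNAT (2202, 1653, 2912 and 2642 CPM), the microtubule destabilizer STMN1 (2066 ± 168) and MAP1B (1865 ± 271) led. The neuronal RNA-binding proteins ELAVL4 (579 ± 43.4), ELAVL3 (402 ± 29.7) and ELAVL2 (314 ± 27.6), doublecortin DCX (193 ± 17.2) and the neurofilament NEFM (321 ± 68.1) were present. Lower members included the growth cone protein GAP43 at 27.1 ± 5.71, STMN2 at 52.6 ± 13.5 and the intermediate filament PRPH at 15.8 ± 3.86 CPM. TUBB3, the tubulin used as a neuron marker, was the member not detected. Its 3′ end shares sequence with other tubulins and is annotated again in the gene AC092143.1, so no level is read from its 0 to 5 counts. TUBA1B shares its 3′ sequence with TUBA1A and TUBA1C, so the split between these is uncertain as well.

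Mesenchymal genes were present in part. Of 35 regulators 21 were detected, 60%, close to the 56.0% of protein-coding genes, with a median of 5.09 CPM, and 12 reached 5 CPM in every library. ZEB1 (240.2, 241, 277 and 272 CPM) and TWIST1 (229, 247, 237 and 259.9 CPM), repressors of epithelial genes, stood highest, with overlapping values, followed by ID1 (113 ± 17.5 CPM) and JUN (59.9 ± 7.55). PRRX1, MEOX1, MEOX2, TWIST2 and RUNX2 had no count in any library, and FOSL1, NOTCH2, WWTR1, EGR3 and BHLHE41 had at most 3. YAP1, relative of WWTR1 (TAZ) in the Hippo pathway, stood at 2.40, 3.42, 1.14 and 1.56 CPM, higher in replicates 1 and 2. All 10 members at or under the floor have free 3′ ends.

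Effectors of the mesenchymal state were detected in 11 of 25 cases, 44.0%, below the 56.0% of protein-coding genes. VIM, an intermediate filament, stood at 233 ± 17.9 CPM, ANXA2 at 176 ± 36.3, ITGB1 at 101 ± 7.86, SPARC at 57.1 ± 9.14 and S100A6 at 50 ± 8.56. CD44 had a mean of 0.858 CPM, and the members at or under the floor included THBS1, TGFBI, COL1A2, CCN2, S100A11, ANXA1, CAV1, POSTN and AXL. COL1A1 stood at 37.1 ± 13.2 CPM while COL1A2, the other chain of type I collagen, had at most 3 counts.

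Markers of other cell types were low. Endothelial markers were detected in 0 of 10 cases, immune markers in 0 of 12 and adrenal cortex markers in 0 of 10, and their summed levels stayed at 1.04 to 5.13, 0.695 to 2.95 and 1.04 to 2.72 CPM. Without replicate 4, 1 endothelial and 1 immune marker met the detection level. The highest of these were EGFL7 (2.12 ± 1.41), PTPRC (1.62 ± 0.926) and STAR (1.25 ± 0.555), while VWF, CLDN5, CD3E, LYZ, NR5A1 and CYP11A1 had no count. Epithelial markers had 1 of 10 detected, CDH1 at 7.68, 1.55, 9.66 and 2.09 CPM, higher in replicates 1 and 3 and under 5 CPM in the others, with EPCAM, KRT18 and KRT19 at 0. Schwann cell precursor markers had 2 of 11, with PMP22 at 13.7 ± 3.02 CPM and SOX10, S100B and FOXD3 at 0. Fibroblast markers had 4 of 10, COL1A1, THY1 (32.1 ± 2.81), PDGFRA (20.7 ± 4.4) and PDGFRB (10.6 ± 4.03), with DCN, FAP and POSTN at 0.

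The label brain was set beside forebrain and glial markers. Of these 5 of 20 were detected, 25%: NEUROD2 (26.3 ± 2.84 CPM), LHX2 (19.9 ± 2.13), SOX2 (10.9 ± 2.92), SLC1A3 (3.72 ± 1.11) and SLC17A7 (1.70 ± 0.964), of which 3 reached 5 CPM in every library. EMX1, PAX6, OLIG1, OLIG2, GAD2 and AQP4 had no count. The 5 markers given for this line, MYCN, HAND2, GATA3, DBH and CHGA, were all detected, with means of 234 CPM or more. Pluripotency markers had 1 of 8 detected, SALL4 at 41.5 ± 8.21 CPM, while NANOG, DPPA4, ZFP42 and UTF1 had no count. POU5F1 and TDGF1 were at 0 as well, and their 3′ ends share sequence with other genes.

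**Figure D4:**
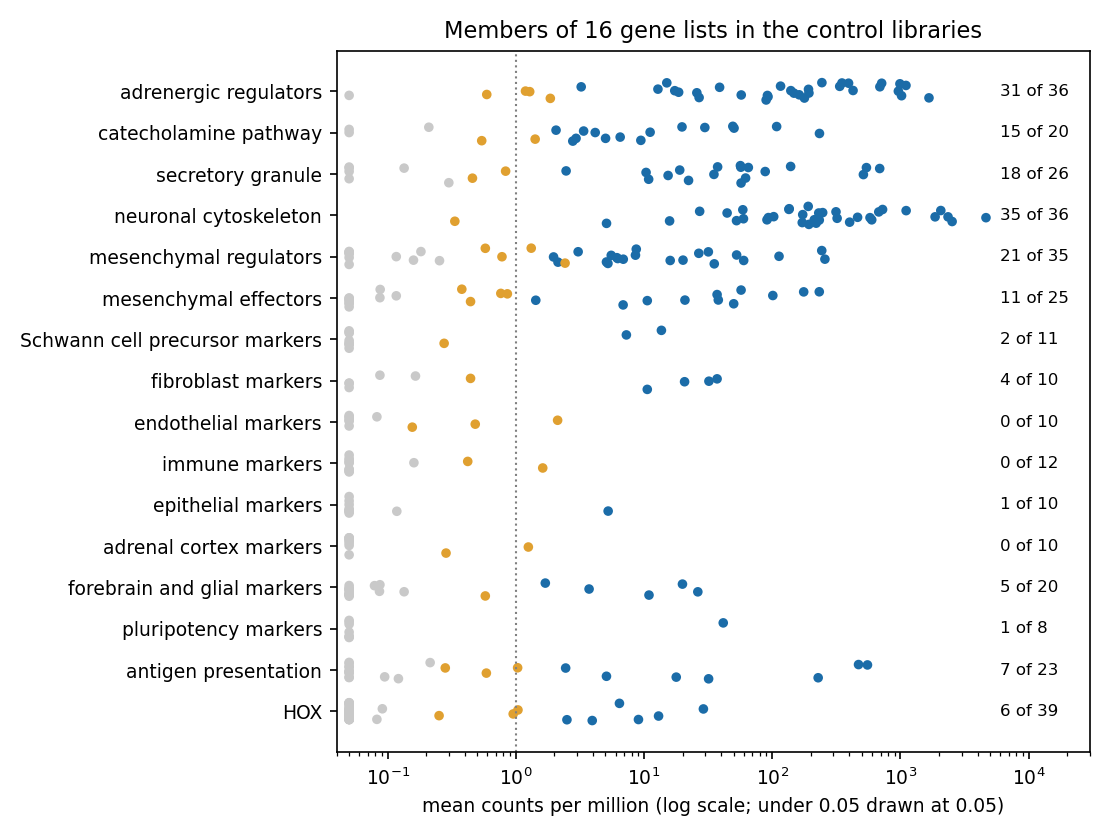
Mean CPM over 4 control libraries (log axis, values under 0.05 drawn at 0.05) for each member of 16 gene lists; blue members were detected at 1 CPM or more in every library, grey members had at most 3 counts in every library, orange members lay between, and the numbers give members detected. Adrenergic regulators (31 of 36) and members of the neuronal cytoskeleton list (35 of 36) lie mostly right of the dotted line at 1 CPM. Endothelial, immune and adrenal cortex markers (0 of 10, 0 of 12 and 0 of 10) do not.

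Genes of antigen presentation were mostly absent from the counts. Of 23 members 7 were detected, 30.4%, and 10 had no count. B2M, the light chain of MHC class I, stood at 228 ± 19 CPM, and PDIA3 (553 ± 62.0) and CALR (471 ± 11), chaperones with wider roles, led the list. HLA-B had at most 3, and HLA-C, HLA-E, HLA-F, HLA-G, the peptide transporter TAP1 and the immunoproteasome subunits PSMB8 and PSMB9 had none. HLA genes vary between people, and whether reads of this line's alleles were lost in mapping was not tested. Sequence matching over the annotated 3′ ends put 11 of the 13 floor members in the class with free ends.

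Few HOX genes, the factors of position along the body axis, were detected, 6 of 39, 15.4%; 3 reached 5 CPM in every library and none 100 CPM. HOXD9 (29 ± 3.04 CPM), HOXC4 (13 ± 2.7), HOXD8 (9.04 ± 1.73), HOXC6 (6.42 ± 2.86), HOXD3 (3.94 ± 0.974) and HOXD10 (2.50 ± 1.47) all belong to the C and D clusters. No gene of the A and B clusters in the list had a count in any library. Of SOX factors 8 of 19 were detected: SOX11, SOX4 (940.5 ± 64.2) and SOX12 (237 ± 21.4), the SoxC group of immature neurons, then SOX9 (26.7 ± 2.93), SOX5 (11.6 ± 2.73), SOX2, SOX7 (10.8 ± 3.20) and SOX8 (3.73 ± 1.28). SOX11 and SOX4 overlapped in their values. SOX6, SOX15 and SOX18 had at most 3 counts, and SOX1, SOX3, SOX10, SOX14, SOX17, SOX21 and SOX30 had none.

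Receptor tyrosine kinases and their coreceptors were detected in 26 of 36 cases, 72.2% against 56.0% of protein-coding genes. GFRA2 (604, 499, 637 and 439.7 CPM), a coreceptor of the GDNF family, stood highest, followed by DDR2 (211 ± 13.9 CPM), a collagen receptor, PTK7 (191 ± 26) and IGF1R (133 ± 17.3). ALK, the kinase mutated in familial neuroblastoma, stood at 38.1, 30.3, 38.6 and 41.0 CPM, lowest in replicate 2, and RET, the partner of the GFRA coreceptors, at 3.30 ± 1.65 CPM. NTRK2, MET, AXL and FLT1 had no count, and GFRA3, KDR and ERBB3 had at most 3. Their ligands were detected in 7 of 20 cases, 35.0%, MDK (756 ± 26.3), the heparin-binding factor midkine, PTN (55.3 ± 6.15), FGF13 (15.8 ± 3.06), VEGFA (12.3 ± 2.81), BDNF (6.45 ± 1.43), NRG1 (6.42 ± 0.768) and FGF2 (5.91 ± 2.21). ALKAL1, NTF3, IGF1 and PDGFB had no count and ARTN at most 3. IGF2 was listed at 0, and its 3′ end is annotated again in the readthrough gene INS-IGF2.

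In the MYC and MAX network 12 of 13 were detected. MYCN stood above all others, then MLXIP (102 ± 6.07 CPM), MAX (88.6 ± 10.9), the obligate partner of MYC proteins, MLX (86.2 ± 10.9) and MGA (84.0 ± 7.54). MYC had 2 counts in replicate 1 and none in the others, and MYCL stood at 3.72 ± 1.5 CPM. MYCN exceeded MYCL 296 ± 128 times on average over libraries, and MAX was lower than MYCN in all 4 libraries.

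Genes of neuroblastoma predisposition and outcome were detected in 36 of 41 cases. They included ATRX (604 ± 53.5 CPM), a chromatin remodeller lost in some tumours, TPX2 (327 ± 27.1), the target of the study's siRNAs at its control level, AURKA (170.3 ± 14.5), the kinase TPX2 activates, and ARID1A (169 ± 13.5). CASP8 and RUNX3 had no count in any library, and both have free 3′ ends. Surface targets had 23 of 27 detected. SSTR2, the somatostatin receptor used in imaging, stood at 1186, 1016, 1065 and 1024 CPM, highest in replicate 1. Part of the 3′ end sequence of PABPC1 also occurs in an SSTR2 transcript, so how reads were divided between these genes is uncertain. NCAM1, an adhesion protein, stood at 432 ± 33.7, DLL3 at 267 ± 26.3, CHRNA3, a nicotinic receptor subunit of sympathetic ganglia, at 224 ± 9.12 and CD24 at 155 ± 14.5 CPM. GPC2 (115 ± 7.24) and B4GALNT1 (38.4 ± 5.30), a synthase of the ganglioside GD2, were present. SSTR1, FAP and MSLN had no count and PROM1 at most 3.

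Genes of replication and mitosis were detected without exception, 36 of 36 for spindle and mitosis and 32 of 32 for S phase. CENPF, TOP2A, MKI67 (728 ± 39.8 CPM), AURKB (374 ± 36.4) and PTTG1 (351 ± 32.9) led the mitotic list, and RRM1 (404 ± 27.1), MCM7 (360.3 ± 17.3), HELLS (342 ± 30), ATAD2 (289 ± 29.6) and MCM4 (280.3 ± 3.93) the S phase list. Of G1 genes 17 of 19 were detected, with CCND1 at 728, 780.0, 856 and 827 CPM, CDK6 at 629.8 ± 49.1, CDK4 at 333 ± 37.8, CDK2 at 299 ± 36.0 and E2F3 at 171 ± 2.97 CPM, while CCND2 and the inhibitor CDKN2B had no count. The levels are means over cells, so fewer cells that use a gene and less RNA per cell cannot be told apart.

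Apoptosis genes were detected in 24 of 35 cases. BIRC5 (214 ± 34.4 CPM), a mitotic inhibitor of apoptosis, CYCS (213 ± 12.8), MCL1 (206 ± 7.95), CASP2 (84.2 ± 3.35) and BCL2 (76.2 ± 6.87) stood highest. Of the initiators of the death receptor route, CASP8 had no count and CASP10 at most 3, as did TNFRSF10A, and the ligand FASLG had none, while the adaptor FADD stood at 27.2 ± 0.851 CPM. CASP9, the initiator of the mitochondrial route, had 0 to 6 counts and its partner APAF1 15.0 ± 2.54 CPM. BIK, BOK and BCL2A1 had no count.

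Telomere genes had 12 of 15 detected. DKC1 (699 ± 39.4 CPM), which binds telomerase RNA and small nucleolar RNAs, ATRX, NHP2 (121 ± 6.75), TERF1 (94.3 ± 9.60) and TERF2 (77.3 ± 8.88) led. TERT, the catalytic subunit of telomerase, stood at 2.88, 1.71, 0.568 and 0.869 CPM, 3 to 18 counts, under the detection level in replicates 3 and 4. TERC and RTEL1 were at or under the floor, with 3′ ends covered by other genes. TERC is also not polyadenylated as a rule, so no absence is read from its counts.

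Oncofetal and imprinted genes had 19 of 26 detected. NNAT, IGF2BP1 (816, 858, 829 and 857 CPM), an RNA-binding protein of fetal tissue, HMGA1 (713 ± 103 CPM), KCNQ1OT1 (368 ± 89.2) and SNRPN (145 ± 10.6) led. LIN28B, which blocks let-7 maturation, stood at 49.5 ± 4.90 CPM. LIN28A, HMGA2, NDN and MAGEL2 had no count.

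Chromatin and high mobility group genes had 31 of 33 detected, led by PTMA, NCL, SET, the linker histone H1-10 (1233 ± 61.3 CPM) and NAP1L1 (1106 ± 58.2). Of the long non-coding RNA list 31 of 40 were detected, 77.5%, against 21.9% of all genes and 675 of all 13142 intergenic and antisense RNA genes. The list also holds RNAs of other annotated types, SNHG29, SNHG16 and SNHG5 among them, so those 13142 genes are not its own class. After MALAT1 came SNHG29 (949 ± 87.6 CPM), SNHG16 (848 ± 105), KCNQ1OT1 and SNHG5 (341 ± 28.6). HOTAIR, HOTAIRM1 and RMST had no count and have free 3′ ends, while RMRP, RN7SK, RPPH1 and TERC lie in the group whose ends overlap other annotated genes. These 4 RNAs are also not polyadenylated as a rule.
Among 13142 intergenic and antisense RNA genes, 675 were detected and 16 reached a mean of 100 CPM. Beside the RNAs of the MYCN and HAND2 loci these included LINC00682 (507 ± 43.9 CPM, chromosome 4, 41872747 to 41882955, minus strand). 

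Olfactory receptors and keratins were nearly silent. Of 381 olfactory receptor genes 1 was detected, OR52I1 at 4.85 ± 1.96 CPM, and of 55 keratins 1, KRT10 at 41.5 ± 8.17 CPM. Of 44 collagens 17 were detected, led by COL6A1 at 119 ± 12 CPM. Zinc finger genes differed, with 409 of 519 detected, 78.8%, at a median of 10.3 CPM.

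The levels of close relatives were set side by side in 24 pairs chosen with these levels known, so the count of 22 pairs whose values did not overlap is no measure of how common this is. It includes EIF4A1 with EIF4A2, where the first cannot be read as a level. HAND2 exceeded HAND1 4.43 ± 0.496 times, TBX2 exceeded TBX3 4.78 ± 0.252 times and GATA3 exceeded GATA2 43.2 ± 3.96 times, each a mean ± SD over libraries. MEIS1 stood 9.16 ± 1.17 times above MEIS2, IGF2BP1 13.1 ± 1.2 times above IGF2BP2, CHGA 8.50 ± 1.44 times above CHGB and ENO1 8.65 ± 1.07 times above ENO2, the neuronal enolase. Smaller gaps were those of ELAVL4 over ELAVL3 (1.44 ± 0.0190 times), CDK6 over CDK4 (1.91 ± 0.278 times) and EEF1A2 (362 ± 23.1 CPM), the elongation factor of neurons and muscle, over EEF1A1 (214 ± 20 CPM, 1.71 ± 0.218 times). EEF1A1 has many processed copies in the genome, and how its reads were divided among them is not known here. KIF1A, an axonal motor, stood 3.58 ± 0.478 times above KIF1B (109 ± 8.23 CPM), and STMN2 13.5 ± 8.96 times above STMN4.
Relatives with no count were taken at 3 counts per library, which gives a lower limit of the fold in each library. Averaged over the 4 libraries, this limit was 1570.2-fold for CCND1 over CCND2 and 1412-fold for HMGA1 over HMGA2. It was 98.2-fold for LIN28B over LIN28A and 8.08-fold for SLC18A2 over SLC18A1, and single libraries lay below these averages. The pairs that overlapped were SOX11 with SOX4 and CASP8 with CASP9.

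Some low counts cannot be read as low levels. Of 1054 protein-coding genes with at least 50% of the last 500 bases of their transcripts covered by exons of another gene on the same strand, 13.2% were detected. Of 710 others with at least 50% of 50-base stretches there shared with another gene, 16.8% were, against 59.8% of 17506 genes with free ends and 68.1% of 633 covered on the opposite strand. The enzyme ALDOA, with 0 to 5 counts, EEF1G, IGF2, TUBB3, EIF3C and EIF3L are such genes, and no absence is read from them. How reads that fit several genes were counted is not given in the sources used here. CASP8, NTRK2, CCND2, HMGA2, NDN, RUNX2 and PRRX1 have free ends.

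The 4 libraries lay close together. Between pairs, log2 CPM of the 12860 detected genes correlated with Pearson's r from 0.973 to 0.979 across genes, which are not independent replicates. A chi-square statistic of counts per degree of freedom ran from 4.39 to 6.98, so no pair agreed within sampling noise. The median coefficient of variation (CV, SD over mean) of detected genes was 14.1%. The counting value, 1 over the square root of a gene's mean count, had a median of 8.43%. An SD of 4 values lies below the true SD more often than above it. Observed medians are therefore somewhat low beside the counting value. The CV beyond counting, edgeR's common biological coefficient of variation, was 12.6% over 12077 genes. For genes with a mean under 30 counts the median CV was 32.5%, 1.40 times the counting value, and for genes of 3000 counts or more it was 7.28%, 5.08 times the counting value.

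**Figure D5:**
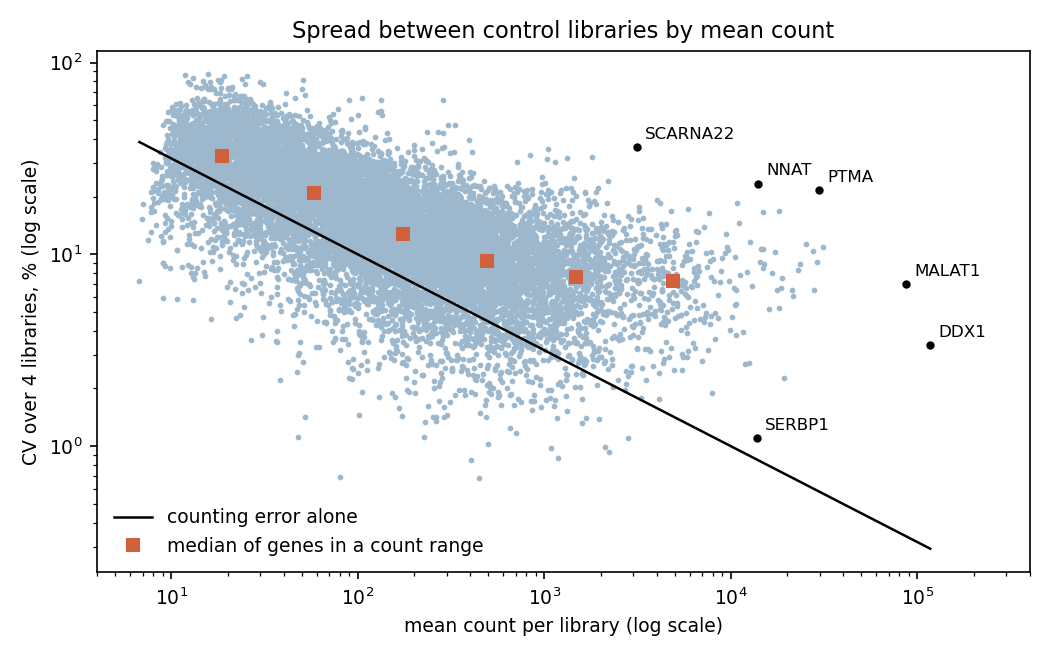
CV over 4 control libraries in percent against mean count per library, both on log axes, for each detected gene (points), with the median of each count range (squares) and the value that counting error alone gives (line). The medians leave the line as counts rise and level off near 7.28%, SERBP1 lies near the line, and PTMA, NNAT and SCARNA22 lie far above it.

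Some genes varied far more than counting error. At a given CV the ratio of variance to mean count rises with the mean, so this ratio favours abundant genes. By the ratio of variance to mean count, among 7570 genes with a mean of at least 100, the largest was that of PTMA, at 5619.6, 3659.7, 6122 and 4683 CPM. NNAT, at 2202, 1653, 2912 and 2642 CPM, and RPS27A, at 2912, 2509.9, 3746 and 3112 CPM, were likewise lowest in replicate 2 and highest in replicate 3, as were RPS12 (1698, 1422, 2211 and 1918 CPM) and NUCKS1 (5186, 4476, 5827 and 5470.0 CPM). The other largest ratios were those of MALAT1, RNU4ATAC (1878, 2635, 2793 and 2675 CPM), the Cajal body RNA SCARNA22 (334, 791, 485 and 493 CPM), HSP90AA1 (4933, 3798, 4159.7 and 4123 CPM) and TUBB (4139, 4741, 4446 and 5274 CPM). RNU4ATAC was lowest in replicate 1, SCARNA22 highest in replicate 2, HSP90AA1 highest in replicate 1 and TUBB highest in replicate 4. MALAT1 had a CV of 7.02%, no higher than the 7.28% median of genes with 3000 counts or more. TUBB had 10.4%, NUCKS1 10.9% and HSP90AA1 11.3%, while DDX1 had 3.4% and CENPF 2.28%. Ranked by CV instead, other genes came first: ENSG00000273199 (65.3%), DHRS2 (64.1%), RPL23AP42 (63.6%) and COL27A1 (56.0%).
The 10 smallest ratios ran from 0.0205 to 0.0483; with 4 libraries, ratios this far under 1 can arise from counting error alone among so many genes, so nothing particular is read from them. They included those of PCMT1 (75.1, 75.4, 74.6 and 74.2 CPM), a protein repair enzyme, LINC00342, STAMBP, MRPL52, NUMB, CMIP, SMURF1 and HYAL2, of which NUMB stood at 17.7 ± 0.340 CPM. Replicate 2 deviated from the mean with transcript length, with a Spearman correlation of 0.256 between the log2 deviation and the longest transcript over 7568 genes, where the other libraries gave -0.134 to -0.0212. With the GC content of the 3′ end the correlations ran from -0.157 in replicate 2 to 0.125 in replicate 4. Their part in the differences between libraries was not tested.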

How the data were processed

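The deposited table holds raw counts per Ensembl gene for 16 libraries; the 12 knockdown columns were not used. Per the labels' protocols, RNA was isolated with the miRNeasy kit and DNase, and libraries were made with the Lexogen QuantSeq 3′ kit, 15 PCR cycles and single-end reads on a NextSeq 2000. The submitters' processing notes name FastQC 0.11.7, STAR 2.7.2b, edgeR 3.36.0, limma 3.50.3 and GRCh38, with no role or order. The counter, annotation, strand use, handling of reads that fit several genes and use of molecular identifiers are not given in the sources used here. Of 58787 gene IDs, 58434 matched a table of gene names and 58515 the GENCODE 29 annotation, which gave positions and gene types.

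CPM was computed with edgeR 4.0.16 (R 4.3.3) from total counts and TMM factors of 0.990 to 1.02. Shares of counts used raw totals. Every ± is an SD over 4 libraries, and no group was compared, so no p-value was computed. The common biological coefficient of variation came from edgeR's dispersion with 1 group mean; on simulated counts of 12077 genes, made with 0.1 except for 200 made with a larger value, it gave 0.109. Genes named are the given markers, the 25 most abundant, the 5 highest detected and up to 5 floor members of each of 35 lists, all paralog pairs, and the 10 largest and 10 smallest ratios of variance to mean. Others, among them further list members, the DDX helicases and single members of families, were named after their values were seen. Some genes that this rule names are not reported here. The samples, lists and pairs were chosen with earlier results of these data known. Alternatives were the detection level, library scaling, thinning, leaving out each library, the genes in the total, and a narrower promoter window. Paralog comparisons under other settings, the pyrimidine run and a strand-limited TATAAA were added after seeing the data. Tables and plots used Python 3.11.15, pandas 2.3.3, numpy 2.4.6 and matplotlib 3.10.9.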

Additional observations from a re-analysis of the deposited data

Results flagged for a closer look

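For 245 sets of 4 values (levels of named genes, summed levels of lists, family shares), the gap of the highest or lowest library to the nearest other was divided by the range and set against Dixon's 95% critical value. Chance flags about 1 in 20 such sets; here 16 did, 6.53%, with replicate 4 standing apart in 8, replicates 1 and 2 in 3 each and replicate 3 in 2. No explanation was tested for any of them.

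Replicate 4 was low for MALAT1 at 13169 CPM against 15183 to 15313 in the other 3. It was low, too, for the summed long non-coding RNA list, which MALAT1 leads, at 18399.6 CPM, for the summed adrenergic regulators at 10169.5 CPM, and for TFAP2A at 11.5 CPM. The same library was high for the stathmin family at 0.248% of counts, for its member STMN1 at 2315 CPM, for PTTG1, the anaphase inhibitor securin, at 399.7 CPM, and for SLC17A7 at 3.13 CPM.

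Replicate 1 was high for heat shock proteins and chaperonins, which held 1.95% of counts against 1.73 to 1.75% in the other 3. Its summed adrenal cortex markers stood at 2.72 CPM, and its HOXC4 was low at 8.96 CPM. Replicate 2 was low for the summed housekeeping genes at 9971 CPM, for CYCS, cytochrome c, at 194 CPM and for IGF2BP2 at 57.5 CPM. Replicate 3 was high for TBX2 at 494 CPM and low for JUN at 48.7 CPM.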

How the results depend on the processing

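Counts of detected genes and the number holding 50% of counts stayed within 1.5 times under every alternative run for them. The share of the 100 most abundant genes stayed within 1 SD. Leaving out 1 library could hardly move that share further, since the SD comes from the same 4 libraries. With a total of protein-coding genes only, the 10 most abundant held 6.45% and ribosomal protein genes 9.85%; with ribosomal pseudogenes added, the latter was 10.4%. Restricted to genes with at least 100 counts in every library, the median CV was 9.87% and the common biological coefficient of variation 10.3%. CTTTCC was in 30.6% of ribosomal protein promoters in the narrower window, and in 13.1% of all promoters. Of 1806 values of 301 named genes under other scalings or without a library, 2 moved by over 1 SD, PCMT1 and MRPL52, both without replicate 2. Leaving out 1 of the 4 libraries cannot by itself move a mean by 1 SD of those 4. Only the recomputed scaling could do so, and this count is therefore no measure of stability. At 5 CPM in every library the detected members were 12 mesenchymal regulators, 9 catecholamine genes, 3 HOX genes, 3 forebrain and glial markers and 0 epithelial markers. At 0.5 CPM 1 endothelial and 1 adrenal cortex marker were detected, and without replicate 4 1 endothelial and 1 immune marker. No paired analysis was possible because the values describe 1 group and come from no test. At this depth genes under about 0.568 CPM cannot be told from absent ones.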
